A study of Rattus norvegicus with 9 samples.

Results

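The genes described here encode the enzymes of cholesterol and fatty acid synthesis, the SREBP regulators that control them and one sterol carrier protein. They were chosen by gene name, 31 in all of the 32623 entries in the expression table. Each name had a single entry, and all 31 passed the filter on low counts that left 16284 genes for testing. Of these, 8 act in cholesterol synthesis before squalene and 10 after it, 6 are the regulators and the carrier, and 7 make or modify fatty acids.

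RNA was sequenced from primary cortical neurons of wild-type Wistar rat embryos (embryonic day 16 to 18) grown on glass coated with indium tin oxide (ITO), a transparent conductor through which current can be passed. Control neurons were not stimulated, DCS neurons received direct current and ACS neurons alternating current, with 3 libraries in each group. The labels, which name the direct current group DES, give 3 µA and 20 min over 7 days for both kinds of current, and 20 Hz for both. They place the cells at day 7 in vitro, while the culture protocol runs to day 14. No source states whether replicate libraries stem from separate cultures, and the spread behind each p-value may therefore be technical.

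Cholesterol is built from acetyl-CoA by way of mevalonate, isoprenoid pyrophosphates and squalene, and squalene is then closed into a ring system and trimmed to the finished sterol. The transcription factors SREBP-1 and SREBP-2 are held in the endoplasmic reticulum by INSIG proteins while sterols are plentiful, and are carried by SCAP to the Golgi for cleavage when sterols run low. SREBP-2 is best known for raising the genes of sterol synthesis and SREBP-1 for those of fatty acid synthesis. Cholesterol hardly crosses into the brain from blood, so neurons and glia make their own, and growing neurites need both sterols and fatty acids for new membrane.

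The promoters are shown first, because SREBPs act together with the factors NF-Y and Sp1, which bind CCAAT boxes and GC boxes. RefSeq sequence (assembly GRCr8) of the 250 bases before the transcription start was matched by symbol for 24 of the 31 genes, with 2 starts for Srebf1, and 7 genes had no match (Stard4, Pmvk, Fdft1, Fasn, Elovl6, Acaca and Sqle). Idi1 and Msmo1 are printed as the genes that passed the test between ACS and control below, and Srebf2 as the only other gene with the sterol motif. Each runs 5′ to 3′ on the strand of its gene, and capitals mark CCAAT on either strand (read as ATTGG on the other) and matches to TCACNCCA.

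Idi1, chr17:66547525-66547774, minus strand: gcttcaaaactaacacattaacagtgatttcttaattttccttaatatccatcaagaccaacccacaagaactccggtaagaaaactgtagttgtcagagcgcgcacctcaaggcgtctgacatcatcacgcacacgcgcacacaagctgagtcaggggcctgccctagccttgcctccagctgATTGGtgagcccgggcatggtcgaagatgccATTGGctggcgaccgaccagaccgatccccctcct
Msmo1, chr16:29746863-29747112, plus strand: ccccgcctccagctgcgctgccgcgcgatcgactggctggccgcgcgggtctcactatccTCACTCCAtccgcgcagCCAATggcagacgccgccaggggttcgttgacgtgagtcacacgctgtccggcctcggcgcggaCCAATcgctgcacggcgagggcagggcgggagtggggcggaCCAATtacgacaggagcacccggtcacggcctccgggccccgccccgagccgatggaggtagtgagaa
Srebf2, chr7:115543057-115543306, plus strand: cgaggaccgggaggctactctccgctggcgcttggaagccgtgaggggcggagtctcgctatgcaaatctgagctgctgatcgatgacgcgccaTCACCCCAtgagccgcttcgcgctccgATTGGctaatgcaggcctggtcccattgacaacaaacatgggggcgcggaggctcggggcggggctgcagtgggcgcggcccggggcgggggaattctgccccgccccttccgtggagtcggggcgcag

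The CCAAT boxes of Idi1 lie 66 and 35 bases before its start, and those of Msmo1 lie 173, 109 and 68 bases before its start. CCAAT was found in 18 of the 24 genes (75%), against 34.0% of all 33469 promoters of the same length and 34.3% of the 12496 promoters whose gene was tested. At least 2 copies were found in 9 of the 24 genes, against 9.42% of all promoters and 11.9% of those of tested genes. GGGCGG, a GC box, was found in 20 of 24 genes (83.3%), against 30.5% of all promoters and 55.5% of those of tested genes. The E-box CACGTG was found in 3 genes, Insig1, Sc5d and Scap (12.5%), against 5.59% and 7.64%. TCACNCCA, a loose form of the sterol regulatory element to which SREBPs bind, was found in Msmo1 and Srebf2 (8.33%), against 3.24% and 2.8%. All motifs were searched on both strands, and a match is a run of letters and not a shown binding site.

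The libraries held total estimated counts of 49039412 to 68690760. Markers of neurons were abundant in each library, with Tubb3 (neuronal tubulin) at 1746 to 2232 CPM (counts scaled to library size) and Stmn2, a growth cone protein, at 1397 to 1569 CPM. Markers of other cells were present too, among them Gfap of astrocytes at 189 to 245 CPM, Olig1 of the oligodendrocyte lineage at 163 to 214 CPM, Csf1r of microglia at 69.9 to 85.9 CPM and Mki67 of dividing cells at 171 to 216 CPM. Csf1r was the highest microglial marker, and the others were uneven. Itgam was at 52.5 to 59.1 CPM, but Cx3cr1 was at 0.891 to 3.35, Tmem119 at 1.23 to 2.26 and P2ry12 at 0.062 to 0.892 CPM. Endothelial and fibroblast markers were low, and Cldn5 of endothelial cells was at 0 in 6 of the 9 libraries. In such mixed RNA, fewer cells of a type and less RNA per cell cannot be told apart.

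Synthesis genes were strongly expressed in all groups. Levels are compared between genes in FPKM, which divides by transcript length. By mean FPKM over the 9 libraries, 17 of the 31 genes stood above 90% of the tested genes, and 30 stood above the median tested gene. Hmgcs1, which condenses acetyl-CoA units on the way to mevalonate, was highest of the 31 in every group, with 575 ± 27.5 FPKM in control, 542 ± 14.7 FPKM in DCS and 525 ± 21.3 FPKM in ACS neurons (SD, n = 3 each). Fads2, a desaturase of polyunsaturated fatty acids, followed in each group with 204 ± 12.9, 206 ± 4.77 and 214 ± 3.15 FPKM (SD, n = 3 each). The next ranks in every group were held by Fdps, Acly, Fasn and Sqle, which make farnesyl pyrophosphate, cytosolic acetyl-CoA, palmitate and squalene epoxide. Their means over the 9 libraries were 172, 170, 164 and 158 FPKM, closer together than the spread of Fasn alone between control libraries (166 ± 23.3 FPKM, SD, n = 3). The lowest was Ebp, a sterol isomerase, with a mean of 7.46 FPKM, more than 48.9% of tested genes. Within the regulators, Insig1 (87.5 FPKM) was above Insig2 (10.8 FPKM) and Srebf2 (54.2 FPKM) above Srebf1 (8.89 FPKM) as means over the 9 libraries, and this order held in each of the 9 libraries. Counts of single genes ran from 361 for Ebp to 135086 for Hmgcs1 per library, Elovl6 aside.

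**Figure D1:**
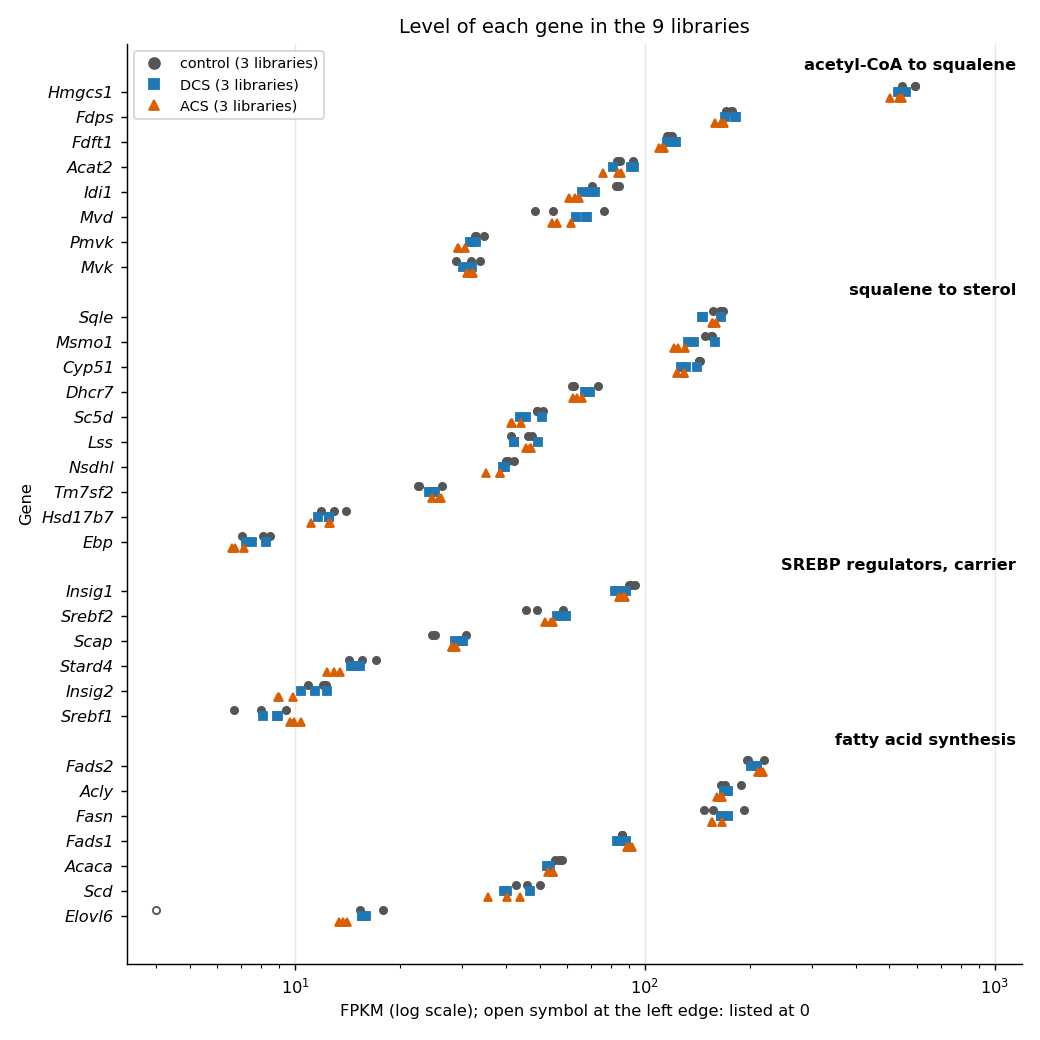
FPKM of the 31 genes on a log scale, grouped by role and ordered by level, with 1 symbol per library for control (circles), DCS (squares) and ACS (triangles). Hmgcs1 lies highest and Ebp lowest, the groups differ far less than the genes do, and the open circle marks Elovl6, listed at 0 in control library 2.

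Alternating current was compared with no stimulation first. Of the cholesterol genes 2 passed the test, and both were lower under ACS, namely Idi1, which isomerises isopentenyl pyrophosphate, and Msmo1, which strips methyl groups from the early sterol ring. These 2 of 31 genes stand beside 4.16% of all tested genes (2.83% higher, 1.33% lower), a share near that of the set. No gene of fatty acid synthesis and no regulator passed. Fold changes are log2 values from edgeR's quasi-likelihood fit, expression is given in CPM scaled by TMM, and a gene passed when its p-value, adjusted over all tested genes by the Benjamini-Hochberg method, was under 0.05.

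Idi1 had 242, 246 and 204 CPM in the control libraries, 203, 192 and 206 CPM in the DCS libraries and 187, 190 and 178 CPM in the ACS libraries. All ACS libraries lay below all control libraries, although control library 3 stood well below control libraries 1 and 2 and inside the range of DCS. Under ACS, Idi1 fell by 19.9%, or -0.32 on the log2 scale (SE, the standard error, 0.068, 95% interval -0.47 to -0.17, adjusted p = 0.0345 from edgeR). The table places it at chr17:57976268-57984036 on the minus strand, where 100 bases are shared with Wdr37 on the other strand, and the strand setting of the counting is not given in the sources used here.

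Msmo1 (chr16:26859397-26875973 on the plus strand in the table) had 299, 297 and 282 CPM in control, 254, 263 and 299 CPM in DCS and 235, 239 and 251 CPM in ACS libraries. The ACS libraries were below those of both other groups, and DCS library 3 was as high as control. Under ACS, Msmo1 fell by 17.5%, or -0.28 on the log2 scale (SE 0.060, 95% interval -0.41 to -0.14, adjusted p = 0.0366 from edgeR). Both calls depended on single libraries, and neither held with the replicate number as a block (adjusted p = 0.0509 for Idi1 and 0.0518 for Msmo1 from edgeR). Neither gene passed without control library 1 or 2, DCS library 2 or any one of the ACS libraries. Without DCS library 1 only Msmo1 passed. The count rose to 4 without DCS library 3 (Cyp51 and Sc5d added), where 4.86% of all genes were called. It rose to 6 without control library 3 (Sc5d, Scap, Srebf1 and Tm7sf2 added, 3 of the 6 being higher), where 8.64% of all genes were called. DESeq2 called 6, Cyp51, Idi1, Msmo1, Sc5d and Stard4 as lower and Srebf1 as higher. There it called 12% of the 13717 genes to which it gave an adjusted p.

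**Figure D2:**
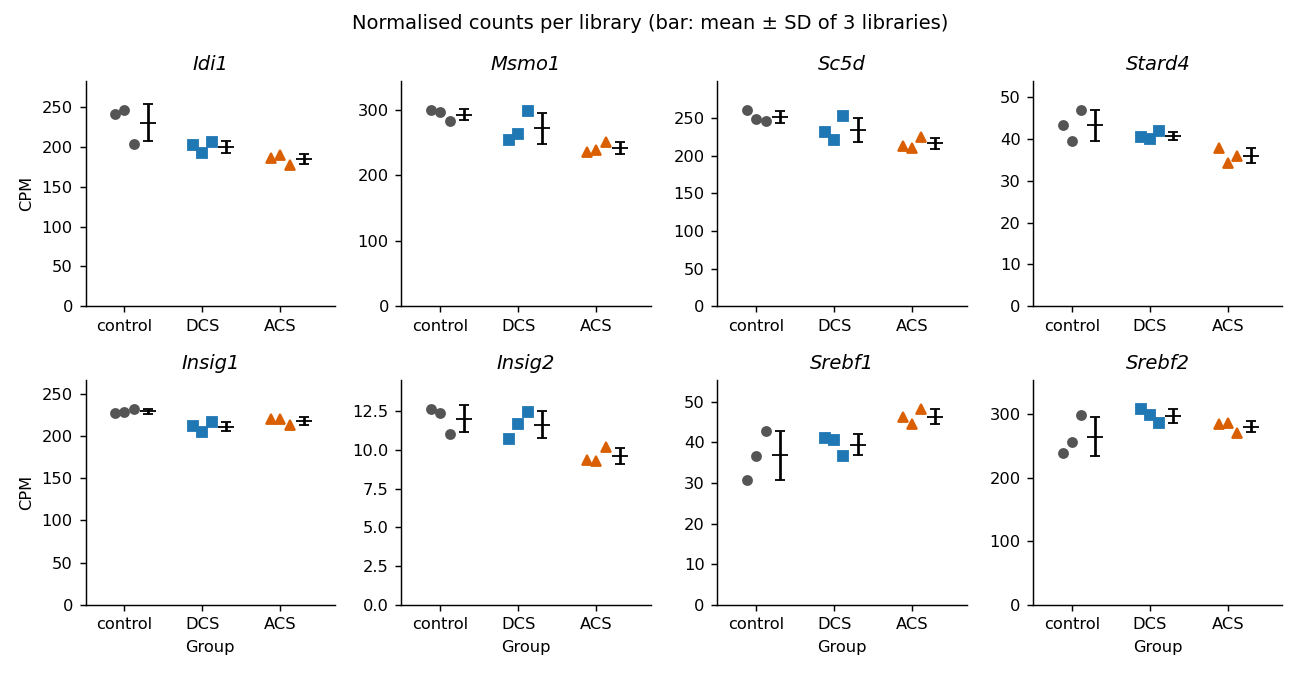
CPM of 8 genes in each library, from 0, with the mean ± SD of the 3 libraries per group beside the points. ACS points of Idi1, Msmo1, Sc5d, Stard4 and Insig2 lie below all control points, those of Srebf1 lie above them, and those of Srebf2 overlap them.

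In the first part of cholesterol synthesis, from acetyl-CoA to squalene, 1 of 8 genes passed (Idi1), and 7 of 8 had a negative log2 fold change under ACS, with a median of -0.074. The remaining 7 ranged from -0.15 for Pmvk, a kinase of phosphomevalonate, to 0.030 for Mvk, the kinase before it. Pmvk had 37.1, 37.2 and 38.8 CPM in control and 35.1, 33.3 and 33.3 CPM in ACS libraries, which did not overlap (adjusted p = 0.135 from edgeR). Hmgcs1 was at -0.12 (adjusted p = 0.223), and its 1981, 1978 and 1795 CPM in control overlapped 1835, 1786 and 1683 CPM in ACS. Fdps and Fdft1, which make farnesyl pyrophosphate and squalene, had groups that did not overlap, with small log2 fold changes of -0.073 and -0.064 (adjusted p = 0.389 and 0.364). Acat2, a thiolase at the entry of the route, was at -0.075 and Mvd, the decarboxylase that makes isopentenyl pyrophosphate, at -0.049. The interval of Mvd ran from -0.35 to 0.25, since its control libraries spread from 85.6 to 133 CPM.

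From squalene to the finished sterol, 1 of 10 genes passed (Msmo1), 8 of 10 had a negative log2 fold change, and the median was -0.10. Sc5d, a desaturase near the end of the route, and Cyp51, which removes a methyl group from lanosterol, were the next closest to the threshold and are named here after their values were seen. Sc5d had 260, 248 and 246 CPM in control, 231, 221 and 252 CPM in DCS and 213, 211 and 225 CPM in ACS libraries. Its log2 fold change under ACS was -0.22 (SE 0.054, adjusted p = 0.0543 from edgeR). Cyp51 had 496, 500 and 491 CPM in control, 454, 435 and 478 CPM in DCS and 453, 431 and 449 CPM in ACS libraries, with a log2 fold change of -0.16 (adjusted p = 0.0654). For both genes all ACS libraries lay below all control libraries. Nsdhl, which decarboxylates the sterol after Msmo1 has acted, was at -0.12 with groups that did not overlap (adjusted p = 0.210). Ebp was at -0.19 with overlapping groups (adjusted p = 0.370). Hsd17b7, Sqle and Dhcr7 were at -0.084, -0.034 and -0.022. Lss, which closes squalene epoxide into lanosterol, was at 0.061, and the reductase gene Tm7sf2 at 0.11 (adjusted p = 0.335). Tm7sf2 shares 1066 bases with Vps51 on the same strand, so its counts are uncertain.

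Among the SREBP regulators and the carrier, 0 of 6 passed edgeR's test, 3 were at an unadjusted p under 0.05 and 2 passed in DESeq2 (Stard4 and Srebf1). The shares were 4.16% and 20.8% of all tested genes and 12% of the 13717 genes in DESeq2, in the same order. The members went in both directions, with 3 positive, 3 negative and a median of 0.0046. Insig2 had 12.7, 12.4 and 11.1 CPM in control, 10.7, 11.7 and 12.5 CPM in DCS and 9.35, 9.31 and 10.2 CPM in ACS libraries. The ACS libraries lay below all others, with a log2 fold change against control of -0.32 (SE 0.10, adjusted p = 0.108 from edgeR). Insig1, its more abundant relative and itself an SREBP target, had 227, 229 and 232 CPM in control, 211, 205 and 217 CPM in DCS and 220, 221 and 213 CPM in ACS libraries. Control was highest without overlap, but the difference under ACS was small at -0.075 (adjusted p = 0.282).

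Srebf1 had 30.9, 36.7 and 42.8 CPM in control, 41.2, 40.6 and 36.6 CPM in DCS and 46.2, 44.5 and 48.2 CPM in ACS libraries. The ACS libraries were above all others, with a log2 fold change against control of 0.33 (SE 0.11, adjusted p = 0.110 from edgeR). Its gene shares 588 bases with Rai1 on the opposite strand. Srebf2 had 239, 256 and 299 CPM in control, 308, 299 and 286 CPM in DCS and 285, 286 and 271 CPM in ACS libraries. The ACS libraries overlapped those of control, with a log2 fold change of 0.084 under ACS (adjusted p = 0.557). Stard4, which shuttles sterol between membranes, had 43.2, 39.6 and 46.8 CPM in control, 40.5, 39.9 and 41.8 CPM in DCS and 37.8, 34.3 and 36.0 CPM in ACS libraries. ACS was again lowest without overlap, with a log2 fold change of -0.26 against control (SE 0.069, adjusted p = 0.0644). Scap, the escort of SREBPs, was at 0.092 (adjusted p = 0.520).

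In fatty acid synthesis 0 of 7 genes passed in edgeR (4.16% of all tested genes) and 0 in DESeq2 (12% of its 13717). At an unadjusted p under 0.05 in edgeR stood 2, against 20.8% of all tested genes. Of the 7, 4 had a negative log2 fold change, and the median was -0.045. Scd, which puts a double bond into saturated fatty acids, had 199, 214 and 231 CPM in control, 187, 183 and 213 CPM in DCS and 189, 166 and 205 CPM in ACS libraries. All groups overlapped, with a log2 fold change of -0.20 under ACS (SE 0.088, adjusted p = 0.227 from edgeR). The neighbouring genes Fads1 and Fads2, on chromosome 1, gave nearly the same values of 0.085 and 0.086 (adjusted p = 0.228 and 0.315). Fads1 had 305, 305 and 300 CPM in control and 322, 327 and 317 CPM in ACS libraries, which did not overlap. Fads2 had 278, 277 and 305 CPM in control and 310, 303 and 298 CPM in ACS libraries, which did. Acly, Acaca and Fasn, the route from citrate to palmitate, were at -0.074, -0.050 and -0.045, and their groups overlapped. The 95% interval of Fasn ran from -0.22 to 0.13.

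Elovl6, which extends palmitate, was listed at 0 in control library 2 against 17.7 and 20.4 CPM in the other control libraries, 17.8 to 18.1 CPM in DCS and 15.5 to 16.3 CPM in ACS. It is named here for this value. The table holds 36 entries at 0 in exactly 1 library with at least 100 counts in each of the others, so the 0 may be a failed estimate. Its fitted log2 fold change under ACS was 0.33 with an SE of 1.03, and became -0.26 without control library 2 (adjusted p = 0.216 from edgeR).

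Of all 31 genes, 22 had a negative log2 fold change under ACS, against 50.5% of all tested genes, and the median was -0.073 against -0.0029. At an unadjusted p under 0.05 stood 12 genes, 10 lower and 2 higher, against 20.8% of all tested genes (10% lower, 10.8% higher). Groups that did not overlap were found for 13 genes, 11 lower and 2 higher, against 27.1% (13% lower, 14% higher). The synthesis genes are better counted than most. Among the 10372 tested genes with a mean count at least that of the lowest of the 31, 13.4% were lower and 13.6% higher at an unadjusted p under 0.05. Of them 1.92% were called lower and 4.06% higher. Their groups did not overlap for 1678 genes with lower ACS libraries (16.2%) and 1658 with higher ones. The differences were small throughout. For 30 of the 31 genes, all but Elovl6, the 95% interval between ACS and control lay within 1.5-fold in either direction, and for 20 within 1.2-fold.

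**Figure D3:**
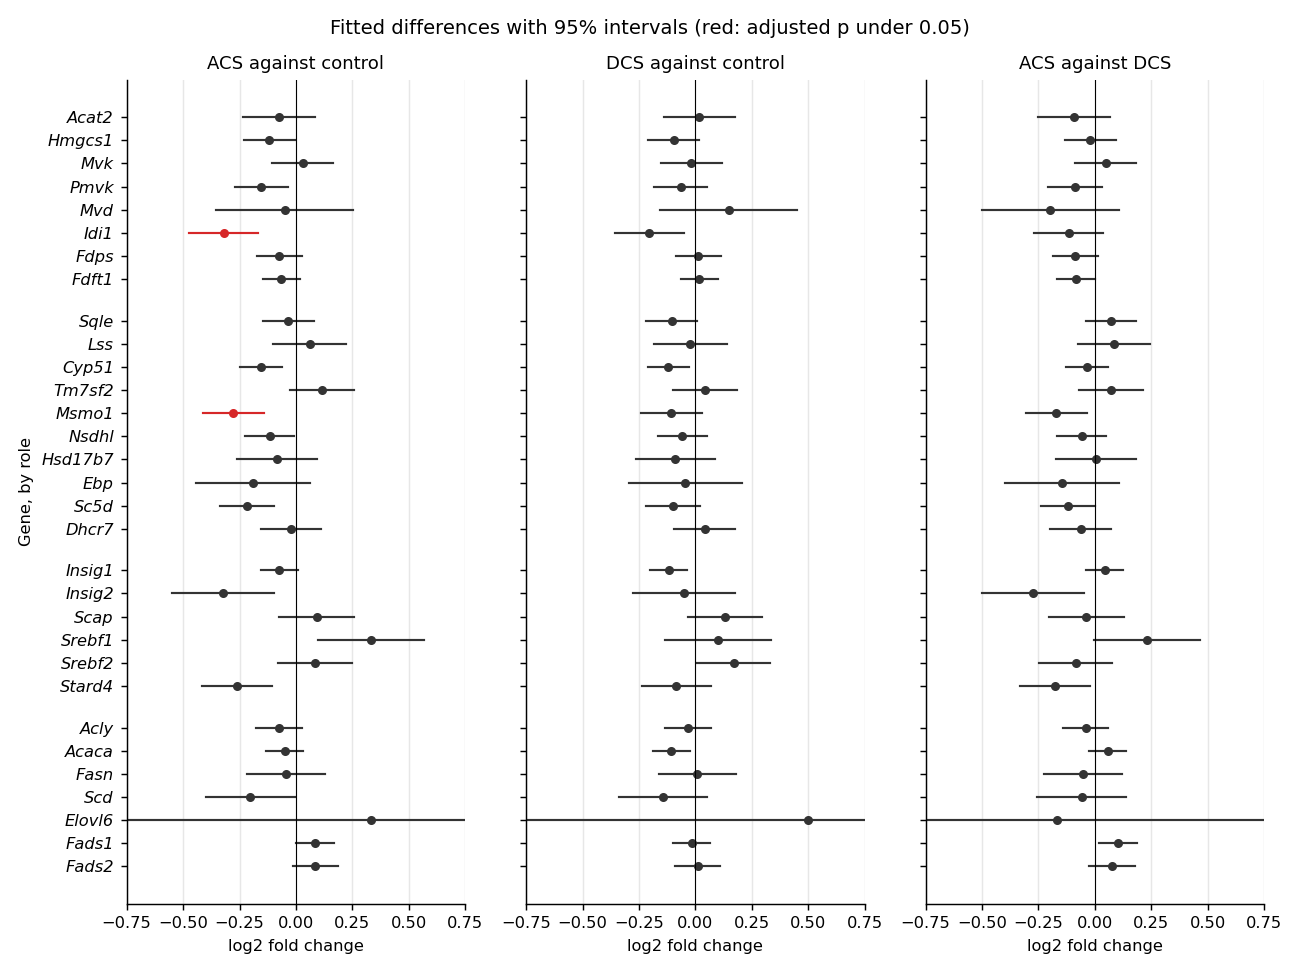
Log2 fold changes with 95% intervals from edgeR for the 31 genes, ordered by role, in the comparisons ACS against control, DCS against control and ACS against DCS. Idi1 and Msmo1 (red) are the genes with an adjusted p under 0.05, both between ACS and control, and the intervals of Elovl6 run past the axis.

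Direct current was compared with the same control libraries. None of the 31 genes passed in edgeR, DESeq2 or limma. There edgeR called 0.0123% of all genes (0.00614% in each direction) and DESeq2 0.234% of the 16232 with an adjusted p. DESeq2 put 6 genes at an unadjusted p under 0.05, a share not counted over all genes. In edgeR 5 genes stood there, 4 lower and 1 higher, against 7.09% of all tested genes (3.05% lower, 4.03% higher). The lower ones were Idi1 (log2 fold change -0.20), Cyp51 (-0.12), Insig1 (-0.12) and Acaca (-0.11), and the higher one was Srebf2 (0.17), each with an adjusted p of 0.692. Acaca, the carboxylase that commits acetyl-CoA to fatty acids, had 401, 409 and 385 CPM in control and 370, 371 and 369 CPM in DCS libraries. It was 1 of 4 genes whose DCS libraries all lay below control, with Cyp51, Insig1 and Pmvk, against 11.1% of all tested genes with groups that did not overlap (5.51% lower, 5.59% higher). No gene had all DCS libraries above control. Of the 31 genes 19 had a negative log2 fold change (49.1% of all tested genes), with a median of -0.034 against 0.0028. By role, the negative ones were 4 of 8 before squalene, 8 of 10 after it, 3 of 6 regulators and 4 of 7 in fatty acid synthesis. Msmo1 was at -0.11 with an interval from -0.24 to 0.028. Intervals lay within 1.5-fold for 30 genes and within 1.2-fold for 21. Without control library 3 the median became 0.0065 and Idi1 passed (log2 fold change -0.28, adjusted p = 0.0487), where 0.284% of all genes were called.

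The currents were then set against each other. Between ACS and DCS none of the 31 genes passed in edgeR, DESeq2 or limma. There edgeR called 0.633% of all genes (0.51% higher, 0.123% lower) and DESeq2 4.85% of the 13402 with an adjusted p. Limma called 0.399% of all genes with a pseudocount of 0.1 and 0.393% with 1. DESeq2 put 7 genes at an unadjusted p under 0.05, and its share over all genes was not counted. In edgeR 4 genes stood there, against 13.9% of all tested genes (6.66% lower, 7.22% higher). They were Msmo1 (-0.17, 95% interval -0.31 to -0.035, adjusted p = 0.245), Insig2 (-0.27, -0.50 to -0.047, adjusted p = 0.270), Stard4 (-0.18, -0.33 to -0.023, adjusted p = 0.294) and Fads1 (0.10, 0.019 to 0.19, adjusted p = 0.256). Idi1 was at -0.12 with an interval from -0.27 to 0.037, and Srebf1 at 0.23 with an interval from -0.0024 to 0.47. Groups that did not overlap were found for 16 genes against 21.4% of all tested genes (11.2% higher, 10.2% lower). Among the 10372 better counted genes, they were found for 1321 with higher and 1302 with lower ACS libraries. Of the 16, the ACS libraries were higher for 5 and lower for 11. The 5 with higher ACS libraries were Tm7sf2, Srebf1, Acaca, Fads1 and Fads2, and the 11 with lower ones were Pmvk, Mvd, Idi1, Fdft1, Msmo1, Ebp, Insig2, Srebf2, Stard4, Acly and Elovl6. Of the 31 genes 21 were negative (50.6% of all tested genes), with a median of -0.058 against -0.0021. The intervals of 30 genes lay within 1.5-fold and those of 23 within 1.2-fold.

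The control group was the most uneven. The median coefficient of variation of the genes between its libraries was 6.43%, against 3.77% in DCS and 3.3% in ACS, and it reached 23.7% for Mvd, leaving out Elovl6. Control library 3 was the highest of its group for 19 of the 31 genes, the lowest for 11 and in the middle for 1, where over all genes it was highest for 38.9% and lowest for 37.7%. Relative to the mean of control libraries 1 and 2, it was higher on the log2 scale by 0.55 for Mvd, 0.34 for Srebf1, 0.31 for Fasn, 0.29 for Scap and 0.27 for Srebf2. It was lower for Idi1, at -0.26. By role, it was highest for 5 of 8 genes before squalene (lowest for 2), for 4 of 10 after it (lowest for 6), for 5 of 6 regulators and carrier (lowest for 1) and for 5 of 7 in fatty acid synthesis (lowest for 2).

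**Figure D4:**
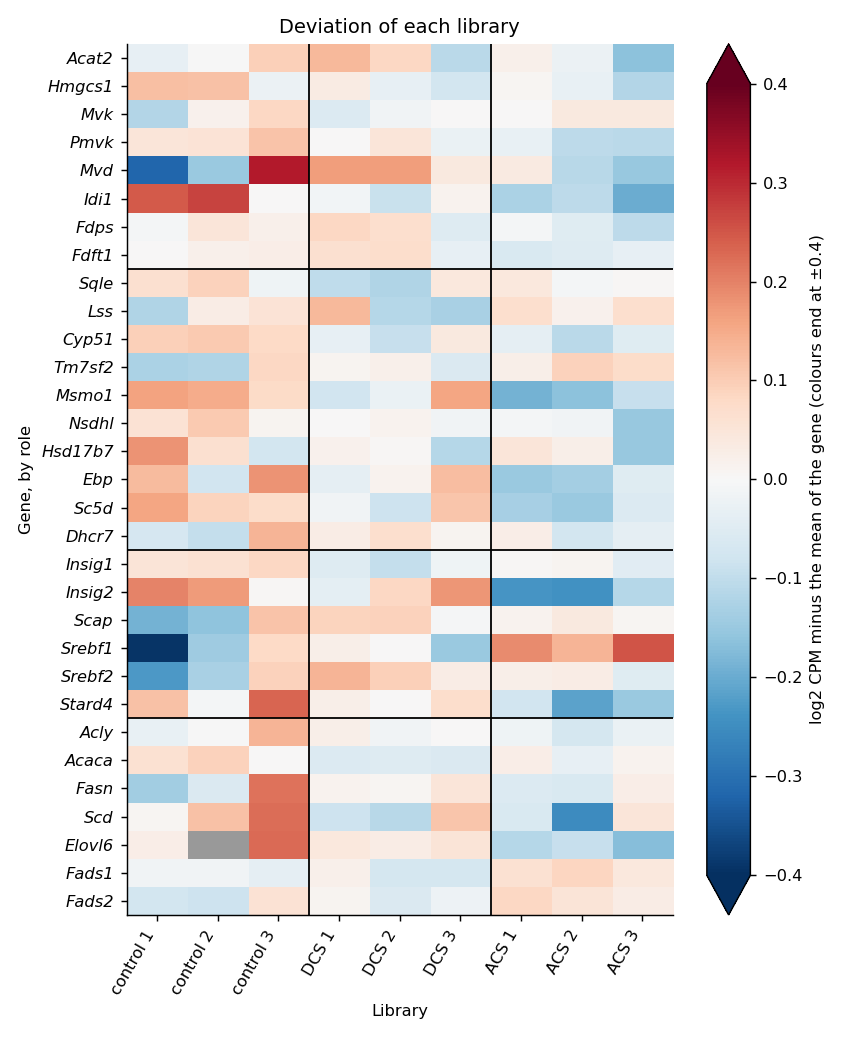
Log2 CPM of each gene in each library minus the mean of that gene, in colours that end at ±0.4, with genes by role and black lines between roles and groups. Mvd and Srebf1 are low in control library 1 and higher in control library 3, Idi1 is high in control libraries 1 and 2, and the grey cell is Elovl6 in control library 2.

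Genes around the pathway were counted from fixed lists for ACS against control. Over all tested genes, edgeR called 4.16% there, and 20.8% were at an unadjusted p under 0.05 (10.8% higher, 10% lower). Of 6 tested genes for SREBP cleavage and INSIG turnover none passed in edgeR (1 at an unadjusted p under 0.05), the nearest being Rnf145, a sterol-responsive ubiquitin ligase, at -0.18 (adjusted p = 0.103). Of 18 genes for sterol uptake, transport, storage and export 1 was called in edgeR, Lrp8, a receptor for lipoproteins and reelin, and 6 were at an unadjusted p under 0.05, 4 higher and 2 lower. Lrp8 had 298, 296 and 300 CPM in control, 305, 279 and 287 CPM in DCS and 343, 324 and 349 CPM in ACS libraries. It rose under ACS with a log2 fold change of 0.19 (SE 0.044, adjusted p = 0.0475 from edgeR). It passed in 5 of 19 alternatives. The call was lost when any 1 library other than control library 3 was left out and in 6 of the 10 alternatives that left out no single library (adjusted p up to 0.162). Mylip, a ubiquitin ligase for lipoprotein receptors, was at -0.55 (adjusted p = 0.0718) and Npc2, a lysosomal sterol carrier, at -0.13 (adjusted p = 0.161). The others at an unadjusted p under 0.05 are named for that, and were Cyp46a1, which hydroxylates cholesterol in neurons, at 0.39 (adjusted p = 0.201), Abca1, an exporter, at 0.23 (adjusted p = 0.205) and the receptor gene Vldlr at 0.11 (adjusted p = 0.236). Of 9 genes of the isoprenoid branch none passed (1 at an unadjusted p under 0.05), with Nus1 of dolichol synthesis at -0.16 (adjusted p = 0.223). Of 19 further genes of fatty acid synthesis none passed (4 at an unadjusted p under 0.05). Mcat of mitochondrial fatty acid synthesis was at -0.27 (adjusted p = 0.113) and Tecr, a reductase of chain elongation, at 0.17 (adjusted p = 0.122). Scd2 of the same list, a further desaturase gene, had 829 ± 15.6 FPKM in control neurons, against 46.4 ± 3.81 FPKM for Scd (SD, n = 3 each). It was at -0.0040 under ACS (adjusted p = 0.968 from edgeR). Over the 52 genes of these lists DESeq2 called 4 (Lrp8, Mylip, Rnf145 and Tecr) and limma 0. DESeq2 called 12% of its 13717 genes, and limma 3.4% or 3.35% of all genes by pseudocount. Between DCS and control none of the 52 passed in edgeR, DESeq2 or limma. There 2 were at an unadjusted p under 0.05 in edgeR, against 7.09% of all tested genes. Between ACS and DCS none passed in edgeR or limma, the smallest adjusted p in edgeR being 0.0659 for Lrp8. In edgeR 9 were at an unadjusted p under 0.05, against 13.9% of all tested genes. DESeq2 called Lrp8 (adjusted p = 0.000303) and Mcat, where it called 4.85% of its 13402 genes.

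Cell type markers moved with the same groups in part. The summed CPM of 6 progenitor markers ran from 630 to 670 in control, 593 to 609 in DCS and 536 to 613 in ACS libraries. Both stimulated groups thus lay below control in this sum, and Hes5 (-1.54) and Mki67 (-0.22) were called lower under ACS. Of these 6, 4 had a negative log2 fold change under ACS and 2 a positive one. The 8 astrocyte markers summed to 911 to 971 CPM in control and 730 to 1064 CPM in ACS libraries, and Gfap was called higher (0.25, adjusted p = 0.0281 from edgeR). Of these 8, 5 had a positive log2 fold change and 3 a negative one. The sums rest partly on single genes in single libraries. In ACS library 1, at 730 CPM, Slc1a3 had 224 CPM, against 476 and 518 CPM in ACS libraries 2 and 3. In control library 2, at 911 CPM, Aqp4 had 17.7 CPM, against 97.9 and 93.3 CPM in control libraries 1 and 3. The 7 neuron markers summed to 5188 to 5748 CPM in control and 5410 to 5670 CPM in ACS libraries, and Rbfox3 was called higher (0.43, adjusted p = 0.00810). Of these 7, 5 had a positive log2 fold change and 2 a negative one, Map2 (-0.34, adjusted p = 0.270) and Syp (-0.030). Of 8 microglial markers C1qa was called higher (0.76, adjusted p = 0.0252), with sums of 171 to 177 CPM in both groups. The log2 fold change was positive for 5 of these 8 and negative for 3. Of 10 markers of the oligodendrocyte lineage none was called in edgeR (1 at an unadjusted p under 0.05), with sums of 632 to 714 CPM in control and 634 to 683 CPM in ACS libraries. Of 4 tested endothelial and fibroblast markers none was called (1 at an unadjusted p under 0.05), with sums of 7.29 to 10.01 CPM in control and 8.72 to 9.58 CPM in ACS libraries. The part of these cells in the values of Idi1, Msmo1 and the other synthesis genes was not tested.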

How the data were processed

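The authors sequenced polyadenylated RNA of 9 libraries, 3 each of control, DCS and ACS neurons, on a stranded protocol. They trimmed the reads (fastp in the paper, cutadapt 1.9 in the submitters' processing notes), aligned them with HISAT2 2.0.4 and quantified them with StringTie 1.3.4d. UMI-tools is listed there too, but not what it was used for. The genome build of the table is not named in it, so its positions are printed as deposited. The deposited FPKM values are the authors' own, scaled to exon length and mapped reads, and show zeros as 0.0001. The deposited estimated counts come from StringTie as whole numbers.

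From the estimated counts, genes were kept by filterByExpr (minimum count 10, minimum total 15), scaled by TMM and tested in edgeR 4.0.16 (R 4.3.3) by its quasi-likelihood F test in 1 fit of the 9 libraries, with p-values adjusted over 16284 genes. CPM uses TMM-scaled totals. Alternatives used DESeq2 1.42.0, limma 3.58.1, other scalings and filters, and each library left out in turn. The scripts were tested on simulated data. Every gene but Elovl6 had 361 or more counts in each library, and a fragment may add about 4 to a count, so depth limits the least counted gene, Ebp, most.

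The 31 genes and all lists were chosen with earlier results of these data known. Values in every library are given for genes with an adjusted p under 0.05, for the gene with the smallest p of each role, and for the pairs Insig1 and Insig2, Srebf1 and Srebf2, and Fads1 and Fads2. Cyp51, Sc5d, Elovl6 and Lrp8 were added after their values were seen, as were the values of Pmvk, Hmgcs1 and Acaca. Up to 3 genes of each surrounding list are named by smallest p, and Abca1, Cyp46a1, Vldlr, Scd2, Map2 and Syp were added after their values were seen. Slc1a3, Aqp4, Itgam, Cx3cr1, Tmem119 and P2ry12 were also added in this way. Spring1, Pecam1 and Col1a2 had no entry, and Cldn5 was not tested.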

Additional observations from a re-analysis of the deposited data

How the results depend on the processing

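The count of genes passing between ACS and control moved most. It was 2 under both other scalings, without a filter, in limma with a pseudocount of 0.1 or 1, with counts divided by 4 and with the 6 libraries alone (Msmo1 and Sc5d, with Idi1 at adjusted p = 0.0579). It was 3 at a mean FPKM of at least 1, 6 in DESeq2 and 0 to 6 with 1 library left out. With 1 library left out, calls over all genes ran from 0.831% to 8.64%. With the replicate number as a block it was 0, with Idi1 at adjusted p = 0.0509 and Msmo1 at 0.0518, and calls over all genes went from 678 to 475. In the other comparisons the block left the count of calls at 0, and genes at an unadjusted p under 0.05 went from 5 to 6 between DCS and control and from 4 to 5 between ACS and DCS. Over all 16284 tested genes, deviations of same-numbered libraries were nearly uncorrelated (correlations from -0.0532 to 0.0631). This was not computed for the 31 genes alone. Some of them, Msmo1 and Scd among them, deviated alike in DCS library 3 and ACS library 3, and others, Idi1 and Insig1 among them, did not. Whether the numbers mark pairs is therefore not known, and the fit with the block stands beside the main one. Idi1 passed in 10 of 19 alternatives (log2 fold change -0.40 to -0.27) and Msmo1 in 12 (-0.31 to -0.26). The median between ACS and control kept its sign in all 19. Between DCS and control the count was 0 to 1 with 1 library left out, and the median ran from -0.059 without control library 1 to 0.0065 without control library 3. Between ACS and DCS the count was 0 throughout. Over the 19 alternatives the sign turned at least once for 5 of the 31 genes between ACS and control, for 13 between DCS and control and for 3 between ACS and DCS, and negative values numbered 19 to 23, 15 to 24 and 20 to 22. With no single library left out, it turned for 1 gene, between ACS and DCS. Of the genes followed singly, Elovl6 ran between ACS and control from -0.26 without control library 2 to 0.86 without control library 3, and to 2.19 in limma with a pseudocount of 0.1. Between DCS and control, it ran from -0.087 to 1.02 without the same libraries and to 2.38 in limma, Srebf1 from -0.012 without control library 1 to 0.22, Fads2 from -0.014 without control library 2 to 0.056 (-0.011 without control library 1, -0.0067 without DCS library 1) and Insig2 from -0.11 to 0.0052 without DCS library 1. Between ACS and DCS, Scd ran from -0.13 to 0.014 without DCS library 3 and 0.019 without ACS library 2. The cause was not tested. Lrp8 passed in 5 of 19 alternatives between ACS and control and in 1 between ACS and DCS. Depth limits Ebp most, with 361 to 616 counts per library.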
